A study of Mus musculus with 4 samples.

Results

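The YAP-TEAD pathway was described here through 10 genes: the target genes Ankrd1, Ccn1, Ccn2, Amotl2 and Lats2, the adaptor gene Ajuba, the co-activator genes Yap1 and Wwtr1, and the DNA-binding factor genes Tead1 and Tead2. They were chosen by name, with earlier results of these arrays known, namely their levels, their difference between the tumour lines and their change with Smarcb1. These 3 quantities are therefore given as descriptions, with no test of their own. All 10 were found among the 19938 genes named by a single-symbol probe set, a group of probes summarised to 1 value, and all 10 were among the 13956 genes tested. Tead1 had 2 probe sets, of which the brighter was used, and each other gene had 1.

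YAP, encoded by Yap1, and its relative TAZ, encoded by Wwtr1, are transcriptional co-activators that bind no DNA themselves and act through the TEAD factors. The Hippo kinases, with the LATS kinases at their end, phosphorylate YAP and TAZ and keep them out of the nucleus. Cells that spread on a stiff matrix release this brake, and Ccn1, Ccn2 and Ankrd1 are the target genes most often read as its output. Amotl2 and Lats2 are targets whose proteins restrain YAP and TAZ in turn.

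Lines 167 and 365 are mouse cancer cell lines from Smarcb1-deficient soft tissue tumours of p53-/- Smarcb1-heterozygous mice on a C57BL6/SV129J background, so every array, controls included, comes from cells without p53. The cells received pMIG, a retroviral vector, either empty or with Smarcb1, whose product belongs to the chromatin remodeller SWI/SNF, and total RNA was taken 3 days after infection. The design asks which genes respond early to the return of Smarcb1. A single array was made per line and vector, so there are 4.

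The label of the vector was borne out by Smarcb1 itself. Its log2 signal in line 167 was 4.61 with empty vector and 7.83 with Smarcb1. Line 365 had 6.01 and 9.61 (for the vector, limma adjusted p = 0.0371, Benjamini-Hochberg over all tested genes). Smarcb1 was also higher in line 365, by 1.40 with empty vector and 1.78 with Smarcb1 (for the line, limma adjusted p = 0.0177). Among 8 mesenchymal markers, Vim lay between 13.27 and 13.53 on the 4 arrays, whereas Fap lay at 3.48 or below on every array. Thy1 lay between 4.97 and 6.27. Col1a1 was at 7.91 and 10.56 in line 167, without and with Smarcb1, and at 6.38 and 6.41 in line 365. Of 7 epithelial markers, Krt8 lay highest, at 5.63 to 6.04, and Cdh1, Krt5 and Krt14 lay between 4.54 and 5.05. Epcam lay below log2 4.27, the filter level set on gene means, on every array, and the other 6 lay above it. Of 4 blood cell markers, Ptprc and Adgre1 lay below it on every array, and Cd3e and Cd68 above it, Cd68 at 8.18 to 9.95. In bulk RNA, fewer cells of a kind and less RNA per cell cannot be told apart.

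Ankrd1 (probe set 10467191) was far higher in line 365 than in line 167 with either vector. Its product is an ankyrin-repeat protein of the nucleus and sarcomere, made in heart and in stretched or injured muscle. The log2 signal was 4.58 with empty vector and 4.29 with Smarcb1 in line 167, against 11.66 and 11.12 in line 365. Both arrays of line 365 were thus high and both of line 167 lay near the filter level, with no overlap. The difference of line 365 over line 167 was log2 7.08 with empty vector (135-fold) and 6.83 with Smarcb1 (114-fold), which ranked 3 and 2 from the highest of 13956 genes. The mean over both vectors, 6.96, ranked 1. Signal above background was not shown for Ankrd1 in line 167, so these folds are uncertain in size. With Smarcb1 the signal differed by -0.29 in line 167 and -0.54 in line 365, a mean change of -0.41 ± 0.18 (SD, n = 2 lines). Since the line 167 signal lay near the filter level, its change there and this mean are uncertain too.

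Ccn2 (probe set 10362201), which encodes a secreted matricellular protein also known as connective tissue growth factor, had the largest change with Smarcb1 of the 10 genes, in line 167. Its log2 signal there was 7.79 with empty vector and 10.77 with Smarcb1, a difference of 2.98 (7.88-fold) that ranked 59 of 13956 changes in that line. In line 365 it was 8.28 and 8.35, a difference of 0.07. Line 167 with Smarcb1 was the 1 high array, and the other 3 lay close together. The mean change was 1.52 ± 2.06 (SD, n = 2 lines), so the spread between the lines was larger than the mean.

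Ccn1 (probe set 10502655), the related matricellular gene once called Cyr61, had a log2 signal of 9.64 with empty vector and 11.04 with Smarcb1 in line 167, and 11.15 and 10.97 in line 365. Here the control of line 167 was the 1 low array. The change was 1.40 (2.63-fold) in line 167 and -0.19 in line 365. With Smarcb1, line 167 was thus near line 365 for Ccn1 and above it for Ccn2.

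Amotl2 (probe set 10588226) encodes a scaffold that holds YAP at junctions and actin. Its log2 signal was 7.55 and 8.34 in line 167, without and with Smarcb1, and 8.65 and 8.49 in line 365. Lats2 (probe set 10420413) encodes a kinase that phosphorylates YAP. Its signal was 7.74 and 7.85 in line 167 and 8.59 and 7.94 in line 365. In both genes 3 arrays lay close together; the array apart was the line 167 control for Amotl2, which was low, and the line 365 control for Lats2, which was high. The change of Amotl2 was 0.78 in line 167 and -0.16 in line 365, and that of Lats2 was 0.11 and -0.65.

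Ajuba (probe set 10419790) encodes a LIM-domain adaptor that binds LATS kinases at tension-bearing junctions. Its log2 signal was 7.56 with empty vector and 8.42 with Smarcb1 in line 167, and 8.54 and 8.66 in line 365. As for Ccn1 and Amotl2, the control of line 167 was low and the remaining arrays lay close together. The change was 0.86 in line 167 and 0.12 in line 365.

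**Figure D1:**
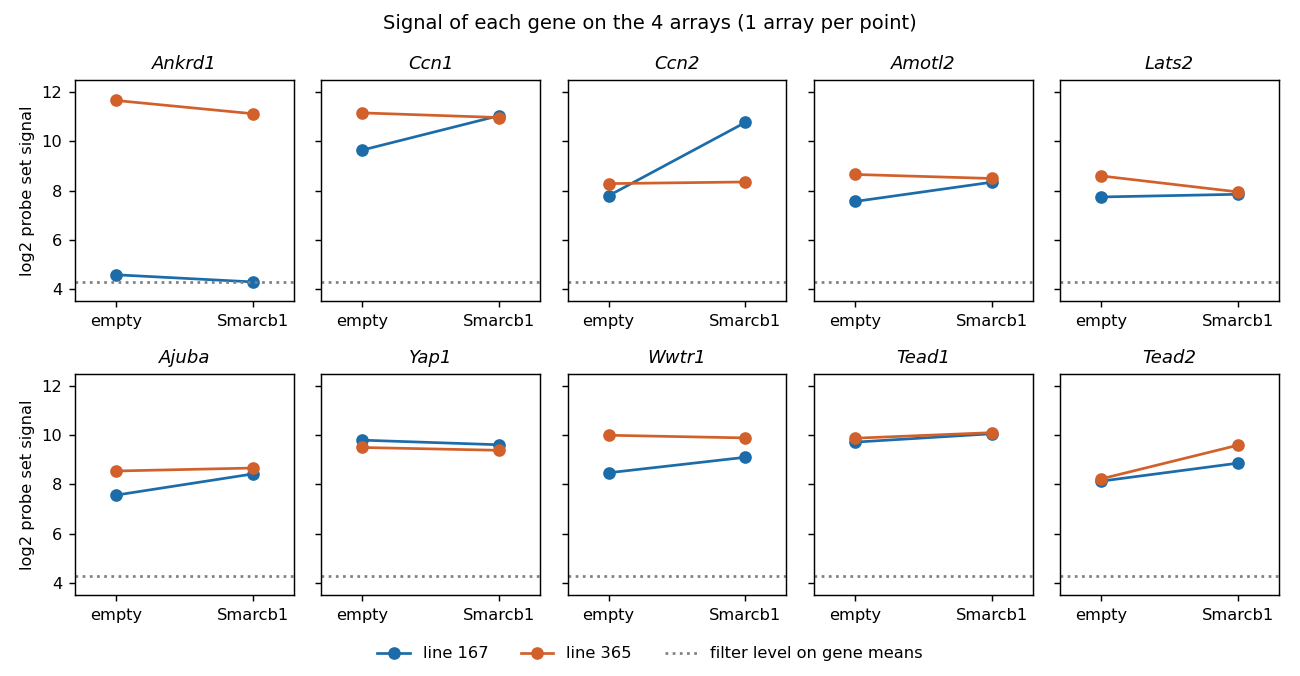
Log2 probe set signal (y axis) of each of the 10 genes with empty vector and with Smarcb1 (x axis), with 1 point per array, blue for line 167 and orange for line 365, and a dotted line at the filter level of 4.27. Each panel is read on its own, since probe sets differ in brightness; Ankrd1 lies at 11.12 or above in line 365 and at 4.58 or below in line 167, and Ccn2 reaches 10.77 only in line 167 with Smarcb1.

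The co-activator genes differed from each other. Wwtr1, for TAZ (probe set 10498284), had a log2 signal of 8.47 and 9.10 in line 167, without and with Smarcb1, and of 9.99 and 9.88 in line 365. Both arrays of line 365 lay above both of line 167. Yap1 (probe set 10590808) had 9.79 and 9.61 in line 167 and 9.50 and 9.38 in line 365, with line 167 slightly above. The change with Smarcb1 was 0.63 and -0.11 for Wwtr1 in lines 167 and 365, and -0.19 and -0.12 for Yap1.

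The TEAD genes encode the factors that bring YAP and TAZ to DNA. Tead2 (probe set 10552874) had log2 signals of 8.13 and 8.86 in line 167 and of 8.22 and 9.59 in line 365, without and with Smarcb1. Its difference with Smarcb1 was 0.73 in line 167 and 1.37 in line 365 (2.58-fold), and both Smarcb1 arrays lay above both controls. The mean change was 1.05 ± 0.45 (SD, n = 2 lines). Tead1 (probe set 10556456) had 9.71 and 10.05 in line 167 and 9.87 and 10.10 in line 365, and its Smarcb1 arrays also lay above its controls, by 0.34 and 0.23. Its dimmer probe set (10556442) was higher with Smarcb1 by 0.21 and 0.17.

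TEAD factors bind a short element whose core reads GGAATG, or CATTCC on the opposite strand, and promoter sequence was searched for it. Of the 10 genes, 8 matched an entry of the RefSeq promoter table by symbol (build GRCm38.p6), and the 250 bases before each annotated start were read. The core occurred in 6 of the 8 on either strand: Ankrd1, Ccn1, Amotl2, Ajuba, Yap1 and Wwtr1. It occurred in 14.4% of all 27025 genes of the table. Ankrd1 had 2 matches, at positions -210 and -123 counted from the annotated start, and Ajuba had 2, at -186 and -164. Ccn1 had 1 match, at -103, and Amotl2 had 1, at -65. Tead2 and Lats2 had none in this window. The AP-1 motif TGANTCA, which can be read on either strand, was in 0 of the 8 genes and in 7.82% of all genes, and the CArG box bound by SRF was in 0 and in 1.62%. A CArG box ends in GG, with which the TEAD core begins, so matches of these motifs can overlap. A match in such a window is a description of the letters only.

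The promoters of Ankrd1, whose line difference was the largest of the 10 genes, and of 2 genes whose line 167 control was the low array are printed so that the core matches, in capitals, can be compared in place. They lie at chr19:36119845-36120094 (Ankrd1), chr3:145649986-145650235 (Ccn1) and chr14:54577662-54577911 (Ajuba), all on the minus strand, and each runs 5′ to 3′ in the direction of transcription and ends at the base before the annotated start.
Ankrd1: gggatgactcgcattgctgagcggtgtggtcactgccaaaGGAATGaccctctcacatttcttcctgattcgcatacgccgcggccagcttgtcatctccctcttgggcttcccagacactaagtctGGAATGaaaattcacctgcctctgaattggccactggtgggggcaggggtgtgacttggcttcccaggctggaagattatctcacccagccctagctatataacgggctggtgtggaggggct
Ccn1: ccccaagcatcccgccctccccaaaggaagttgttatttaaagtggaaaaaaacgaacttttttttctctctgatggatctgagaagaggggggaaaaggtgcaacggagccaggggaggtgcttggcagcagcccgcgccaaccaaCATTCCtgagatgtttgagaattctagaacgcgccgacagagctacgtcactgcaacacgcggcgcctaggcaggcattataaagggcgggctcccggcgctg
Ajuba: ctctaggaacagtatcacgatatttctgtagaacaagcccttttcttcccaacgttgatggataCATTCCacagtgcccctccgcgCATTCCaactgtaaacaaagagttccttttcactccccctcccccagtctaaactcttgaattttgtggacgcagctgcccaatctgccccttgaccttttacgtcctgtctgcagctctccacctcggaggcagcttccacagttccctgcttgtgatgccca

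The median change of the 10 genes with Smarcb1 was 0.68 in line 167 and -0.11 in line 365, beside -0.06 and -0.01 over all tested genes. The 4 genes higher in line 167 and lower in line 365 were Ccn1, Amotl2, Lats2 and Wwtr1, and 16.8% of all tested genes had this pattern. Ccn2, Ajuba, Tead1 and Tead2 were higher in both lines, and Ankrd1 and Yap1 lower in both, beside 3633 and 4761 of 13956 tested genes. The direction of Ankrd1 in line 167 is uncertain, since its signal lay near the filter level there. The reverse pattern, lower in line 167 and higher in line 365, had 0 of the 10 genes, beside 3214 of all tested genes. At least 2-fold higher were Ccn1 and Ccn2 in line 167 (3.40% of all tested genes) and Tead2 in line 365 (2.84%). A single line had 1 array per vector, so these values have no replicate check, and the difference between the responses was not tested.

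**Figure D2:**
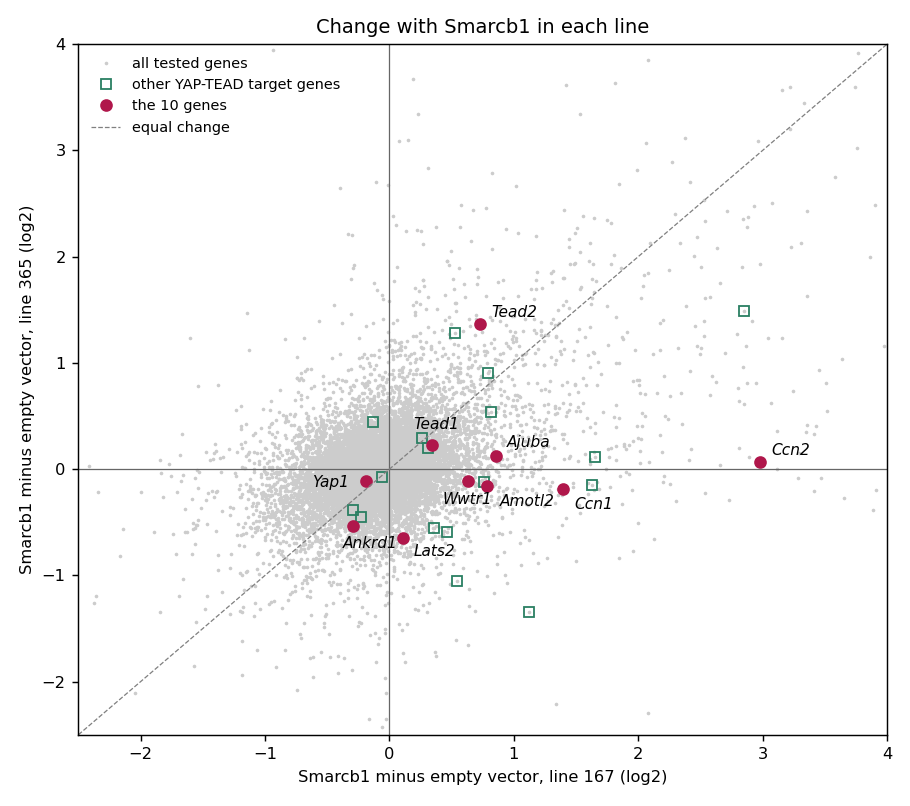
Change with Smarcb1 on the log2 scale in line 167 (x axis) against line 365 (y axis), 1 point per gene, for the 10 genes (red), the other target genes (green squares) and all tested genes (grey); 35 genes lie outside the axes. Ccn2 and Ccn1 lie far to the right and near 0 on the y axis, whereas Tead2 lies above the line of equal change.

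The fit across all genes used limma, with a term for the line and a term for the vector, and adjusted its p-values over all 13956 genes at a threshold of 0.05. For Smarcb1 against empty vector 0 of the 10 genes passed, where 0.0645% of tested genes passed as higher and 0% as lower. At an unadjusted p below 0.05 there was 1 of the 10, Tead2, beside 11.6% of tested genes. For the line, 2 of the 10 passed as higher in line 365, Ankrd1 and Wwtr1, beside 5.31% of tested genes, and 0 passed as higher in line 167, beside 5.64%. The Wwtr1 call ended without limma's intensity trend. Since the genes were chosen with these contrasts in view, nothing is read from these counts.

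The control of line 167 was often the low array. It was the lowest of the 4 arrays in 8 of the 10 genes, all except Ankrd1 and Yap1, beside 23.2% of all tested genes. The differences with empty vector and the changes in line 167 use this same single array, so their counts are not separate results. The genes were chosen with these values in view, and nothing is read from the counts. With empty vector, the median difference of line 365 minus line 167 was 0.92, beside -0.03 over all tested genes, and that of Yap1 was -0.30. At least 2-fold higher in line 365 were Ankrd1, Ccn1, Amotl2 and Wwtr1, beside 5.62% of tested genes. With Smarcb1 the median difference was 0.12, beside 0.0038 over all tested genes, and only Ankrd1 was still at least 2-fold higher in line 365, beside 4.42%. Ccn2 was then the 1 gene at least 2-fold higher in line 167, with a difference of -2.42 for line 365 minus line 167 (5.35-fold), beside 5.09%. The lines lay closer together with Smarcb1 than with empty vector in 8 of the 10 genes, all except Ccn2 and Tead2, and in 57.6% of tested genes. Some of these moves were small: Yap1 went from -0.30 to -0.23, Tead1 from 0.16 to 0.05 and Ankrd1 from 7.08 to 6.83.

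**Figure D3:**
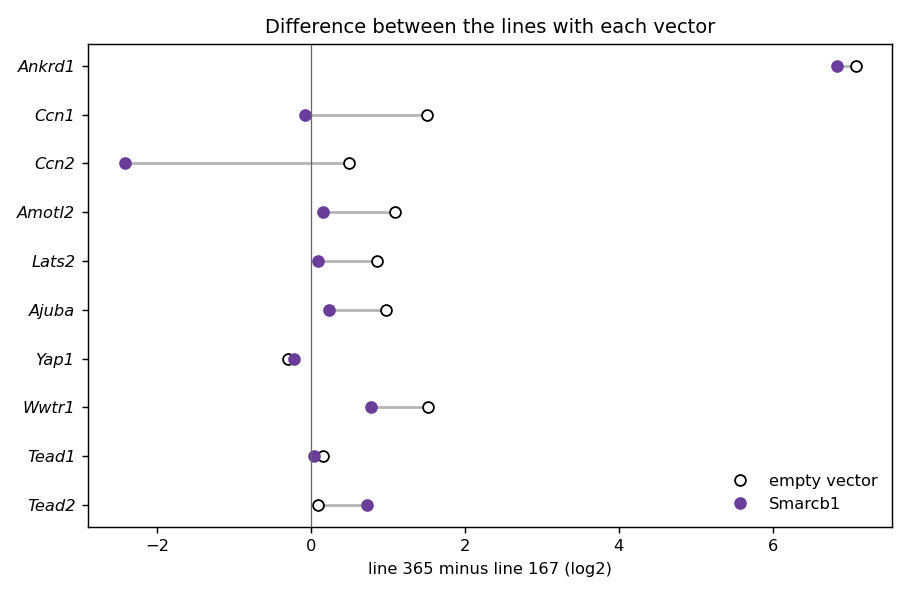
Difference of line 365 minus line 167 on the log2 scale (x axis) for each of the 10 genes (y axis), with empty vector (open points) and with Smarcb1 (filled points). Filled points lie nearer to 0 for 8 genes, Ccn2 moves from 0.49 to -2.42, and Ankrd1 stays at 6.83 or above.

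The genes most like Ankrd1 over the 4 arrays, by Euclidean distance after centring each gene on its mean, were Sele, AA467197, Bcar3, Akr1b8, Asb4 and Cdh5, at distances from 0.70 to 2.00 log2 units. Sele encodes E-selectin, an endothelial adhesion molecule, and had log2 signals of 4.96 and 4.82 in line 167 and of 11.69 and 10.74 in line 365, without and with Smarcb1. Cdh5, the cadherin of endothelial junctions, had 3.78 and 3.64 in line 167 and 9.06 and 8.29 in line 365. Bcar3 and Akr1b8 were higher in line 365 by 5.27 and 5.89 with empty vector. Values of these genes in line 167 were low, between 3.64 and 5.21, and signal above background was not shown there, so the line differences are uncertain in size. In line 365 all 6 were lower with Smarcb1 than with empty vector, by differences from -1.77 to -0.21, as was Ankrd1. In line 167 Akr1b8 and Asb4 were higher with Smarcb1, by 0.88 and 0.49, and the other 4 lower. Since the 6 genes were chosen for likeness over these 4 arrays, shared directions are in part built in.

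Of the 4 endothelial markers, 2 were tested, Cdh5 and Kdr. Cdh5 was higher in line 365 by 4.97 ± 0.23 (moderated SE), a difference of uncertain size since both line 167 values lay under the filter level. It entered the test only through its high line 365 values, so nothing is read from its limma call for the line. Pecam1 reached 4.35 at most, Tek 3.98 and Kdr 4.80 on any array. Of the 16 muscle markers, 10 were tested and 1 passed for the line: Tnnt2, a heart-muscle troponin gene, was higher in line 365 by 1.59 ± 0.27 (limma adjusted p = 0.0330). Mean log2 signal over the muscle markers lay between 4.63 and 4.85 on the 4 arrays, and Ttn, Ryr2, Casq2, Myf5 and Myh3 stayed below the filter level on all of them. Other muscle markers lay above it, such as Actc1 at 6.02 to 6.76 and Acta1 at 5.98 to 6.50. The other ankyrin-repeat muscle genes, Ankrd2 and Ankrd23, differed between the lines by 0.07 and -0.24, with 0 of 2 past the test. The part of other cell types in the Ankrd1 difference was not tested.

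The 67 tested genes of 7 pathway lists beside the 10 gave 0 calls for Smarcb1 in limma in either direction, with 13 at an unadjusted p below 0.05, beside 11.6% of all tested genes. For the line, 2 were higher in line 365 and 9 in line 167, beside 5.31% and 5.64%; the counts of the single lists stand against the same shares. Among 17 other YAP-TEAD targets the median change was 0.53 in line 167 and -0.07 in line 365. The lines lay closer together with Smarcb1 in 13 of them, beside 57.6% of all tested genes. Of them 7 were higher in both lines, 3 lower in both, 6 higher in line 167 and lower in line 365, and 1 the reverse. Over all 13956 tested genes these counts were 3633, 4761, 2340 and 3214. The line test passed for Crim1, a membrane protein that binds BMPs, which was higher in line 365 by 3.83 ± 0.24 (moderated SE; limma adjusted p = 0.00429). It passed also for Asap1 and for Ccdc80, a secreted matrix protein gene, both higher in line 167, with differences of line 365 minus line 167 of -1.53 ± 0.12 (limma adjusted p = 0.00722) and -4.75 ± 0.40 (limma adjusted p = 0.00766). Ccdc80 lay near the filter level in line 365, at 4.46 and 4.57, so its difference is uncertain in size.

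Picked after their values were seen, F3, Igfbp3 and Tgfb2 show the spread of the target list. F3, for tissue factor, had log2 signals of 3.97 and 6.82 in line 167, without and with Smarcb1, and its difference with Smarcb1 was 2.85 there and 1.49 in line 365. The Smarcb1 arrays were the high ones in both lines, and the line 167 control lay under the filter level. For Igfbp3, a carrier of insulin-like growth factors, the difference was 1.63 in line 167 and -0.15 in line 365. For Tgfb2, a TGF-beta ligand, it was 1.12 and -1.35, in opposite directions.

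**Figure D4:**
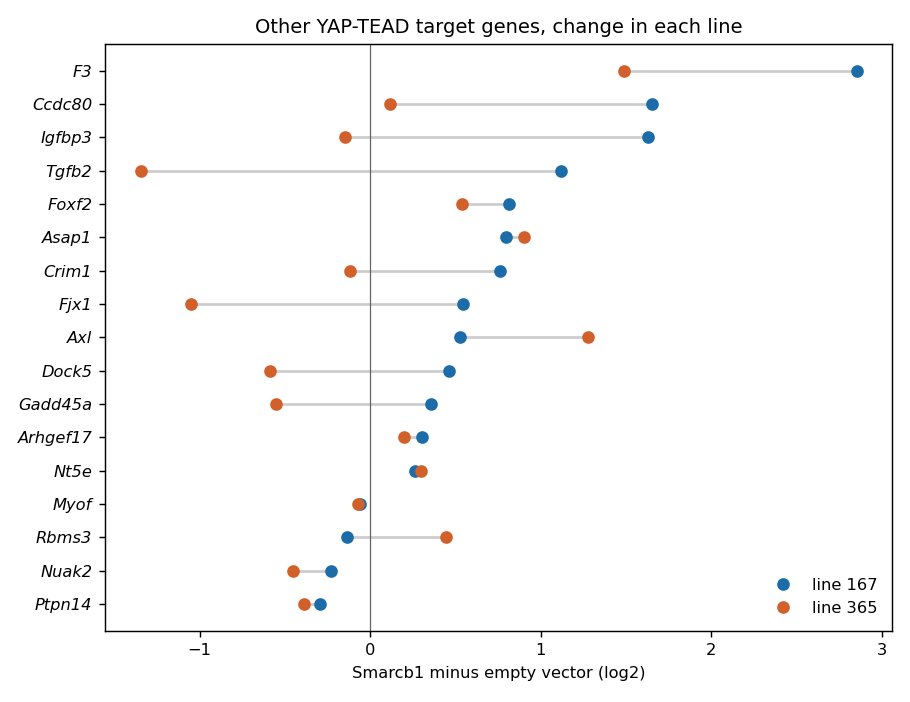
Change with Smarcb1 on the log2 scale (x axis) in line 167 (blue) and line 365 (orange) for the 17 other YAP-TEAD target genes (y axis), ordered by the change in line 167. The line 167 point lies at 0.26 or above for 13 of the genes, F3 is highest in both lines at 2.85 and 1.49, and 6 genes have their line 167 point above 0 and their line 365 point below it.

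Of the Hippo kinase arm and its scaffolds, 20 genes were tested and 0 passed in limma for Smarcb1 or for the line, with 2 at an unadjusted p below 0.05 for Smarcb1, and the median change was 0.09 in line 167 and 0.21 in line 365. The atypical cadherin gene Fat4 had log2 signals of 5.50 and 6.91 in line 167 and of 4.85 and 6.43 in line 365, so both Smarcb1 arrays were high. The differences were 1.42 and 1.58 (limma adjusted p = 0.0926). Stk4, an upstream Hippo kinase gene, had differences of -0.16 and -0.15 in lines 167 and 365. Wwc2, for a scaffold that brings LATS kinases to the membrane, was at 8.53 and 8.49 in line 167 and at 9.68 and 8.97 in line 365, and Amotl1, related to Amotl2, was higher with Smarcb1 by 0.25 and 0.71.

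Of the other TEAD and Vgll genes, 5 were tested and 0 passed for Smarcb1 in limma, with 1 at an unadjusted p below 0.05. Vgll3, whose product binds TEAD in place of YAP, was higher in line 167, with a difference of line 365 minus line 167 of -2.11 ± 0.34 (moderated SE; limma adjusted p = 0.0295) and log2 signals of 7.91 and 7.68 against 6.41 and 4.97 in line 365. Tead3 was also higher in line 167, with a difference of -0.97 ± 0.19 (limma adjusted p = 0.0470). In the other CCN genes, 0 of 4 passed for Smarcb1, with 2 at an unadjusted p below 0.05. Ccn3, for a matricellular protein of the same family, had differences with Smarcb1 of 2.50 and 1.90 in lines 167 and 365 (limma adjusted p = 0.0821), and it passed with no filter or a stricter one. For the line it passed as higher in line 167 (limma adjusted p = 0.0341), with log2 signals of 6.30 and 8.80 there. In line 365 Ccn3 had 5.25 and 7.15. Its line call ended without limma's intensity trend. Ccn4, named after its values were seen, had differences with Smarcb1 of 3.35 and 0.42 in lines 167 and 365.

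TEAD factors often bind beside AP-1, and Ccn1, Ccn2 and Ankrd1 also answer to the actin-sensing factor SRF and its MRTF partners. Of 8 AP-1 subunit genes, 0 passed for Smarcb1 in limma (1 at an unadjusted p below 0.05), and the median change was -0.14 in line 167 and -0.46 in line 365. Fosl1 was higher in line 365 by 2.22 ± 0.17 (moderated SE; limma adjusted p = 0.00611). Of 11 SRF and MRTF genes and targets, 0 passed for Smarcb1, with 3 at an unadjusted p below 0.05 (11.6% of all tested genes), and the medians were 0.88 and 0.15. For the line, 4 were higher in line 167, beside 5.64% of all tested genes: the calponin gene Cnn1, the myosin light chain gene Myl9 and the tropomyosin gene Tpm1, with differences of -2.62, -2.77 and -1.54 (limma adjusted p up to 0.0154), and Mrtfa, with -0.97 (limma adjusted p = 0.0402). Cnn1 lay near the filter level in line 365, at 4.46 and 4.61, so its difference is uncertain in size. The smooth muscle actin gene Acta2, named after its values were seen, had log2 signals of 6.11 and 10.81 in line 167, without and with Smarcb1, and of 5.83 and 5.14 in line 365.

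Of 7 tested mesenchymal markers, 0 passed for Smarcb1 in limma (1 at an unadjusted p below 0.05). For the line, the receptor gene Pdgfrb was higher in line 167, with log2 signals of 8.95 and 9.36 against 5.12 and 5.03 in line 365 (limma adjusted p = 0.00348). The collagen gene Col1a2 was also higher in line 167, at 7.02 and 8.76 against 5.75 and 5.75 (limma adjusted p = 0.0491), and its line 167 array with Smarcb1 was the highest, as for Ccn2. S100a4 was higher in line 365 (limma adjusted p = 0.0341), and its call and that of Col1a2 ended without the intensity trend. Of 6 epithelial and 2 blood cell markers tested, 0 passed for either contrast. The macrophage marker Cd68 had 9.32 and 8.69 in line 167 and 9.95 and 8.18 in line 365, lower with Smarcb1 in both. The part of these markers in the differences of the 10 genes was not tested. With the vector term left out of the model, the line calls of Asap1, Ccn3, Col1a2, Mrtfa, S100a4, Tead3, Tnnt2, Tpm1, Vgll3 and Wwtr1 ended.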

How the data were processed

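RNA from 2 mouse tumour lines with 2 vectors was measured on 4 arrays. Each deposited value is a log2 signal of a probe set. The submitters' processing notes name RMA and Expression Console. RMA subtracts background, makes the distributions of the arrays alike and summarises probes. Software versions and a genome build: not given in the sources used here. Array medians lay between 5.03 and 5.07. A shift in total RNA per cell is hidden by this step.

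Of 35556 probe sets, 21789 have 1 gene symbol in the platform annotation, 1621 have several and 12146 are unnamed here. The brightest probe set stood for a gene. Genes with a mean under the 30th percentile (log2 4.27) were left out. limma 3.58.1 in R 4.3.3 fitted line plus vector (lmFit, eBayes with an intensity trend; two-sided, Benjamini-Hochberg). The residual has 1 degree of freedom, which is how far the lines differ in response, and eBayes added 3.75. The number of arrays limits the precision. The line pairs the arrays: those of a line deviated together from their vector means (r = 0.770 across genes, which are not independent). Nothing says that arrays came from separate cultures, so p-values measure only the spread between these arrays. The line test compares these 2 lines only.

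The members and 12 gene lists (109 entries, 107 matched) were chosen with earlier results of these data known. Named were all members, list genes past the test or else up to 4 of largest change, and the 6 genes nearest to Ankrd1; others are said to be named after their values were seen. Promoters came from RefSeq (GRCm38.p6). Alternatives were other filters, normalizations, probe set rules and models.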

Additional observations from a re-analysis of the deposited data

Results flagged for a closer look

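Some genes named in the text moved in opposite directions in the lines. The difference was not tested, and with 1 array per line and vector a small gap of this kind has no replicate check. The change in line 365 minus the change in line 167, on the log2 scale, was -1.58 for Ccn1, -0.95 for Amotl2, -0.76 for Lats2 and -0.74 for Wwtr1, each higher with Smarcb1 in line 167 and lower in line 365. Of the 67 tested pathway list genes, 16 had this pattern and 7 the reverse, beside 2340 and 3214 of all 13956 tested genes. Among list genes named by rule, the gap was -0.88 for Crim1, -0.51 for Pdgfrb, -0.29 for S100a4, -0.18 for Krt14 and -0.35 for Cd3e. Among those named after their values were seen, it was larger, at -5.39 for Acta2, -2.46 for Tgfb2 and -1.78 for Igfbp3. Of the genes most like Ankrd1, Akr1b8 had -1.08 and Asb4 -1.57. Vim had the reverse pattern, with 0.31.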

How the results depend on the processing

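The number of genes past limma's test for Smarcb1 was 9, and it became 68 when no gene was filtered out and 101 when the filter sat at the 50th percentile. Quantile normalization gave 48, cyclic loess 49, a fit lacking the intensity trend 8 and the mean of a gene's probe sets 9; 0 of the 10 genes passed in any of these. With no replicate block, that is without the cell line that pairs the arrays, 0 passed for Smarcb1 (450 at an unadjusted p below 0.05), and the count for the line, 1528, became 653 without the vector; the fewer terms leave the line or vector difference in the residual. Under the other alternatives the line count lay between 1209 and 1939. Ankrd1 passed for the line in each of the 7 alternatives with both lines, but it was chosen with this difference in view. Nothing is therefore read from these repeated calls. Fat4 passed for Smarcb1 with the filter at the 50th percentile. The median mean change of the 10 genes, 0.30, was -0.11 without line 167 and 0.68 without line 365, and lay between 0.28 and 0.35 under the alternatives with both lines. The mean change of Ankrd1 was -0.54 without line 167 and -0.29 without line 365. Leaving out a line leaves no residual, so no count could be made. Of 120 single values of the 10 genes under other normalizations or probe set rules, 119 moved by less than the residual spread of the gene, and 3 changed sign, all for the Tead1 line difference with Smarcb1, 0.05, which became -0.02, -0.02 and -0.06. The number of arrays and, for Ankrd1 in line 167, signal near background limit what these values can show.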
